A study of Drosophila melanogaster with 12 samples.

Results

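Cytochrome P450 genes encode heme-containing monooxygenases. Members were the genes on the array whose CG identifier belongs to a symbol of the form Cyp, family number, subfamily letters and gene number, so that cyclophilins such as Cyp1 were left out. By this rule 81 P450 genes were represented by 114 probes, and 47 of them (58%) passed the detection filter described below. The arrays compared cultures of Drosophila S2R+ cells at 4 temperatures (11, 14, 25 and 30 °C), each held for 24 h and represented by 3 replicates, or 12 arrays in all. S2R+ is a single hemocyte-like line derived from embryos, so the values describe 1 cell line and not the gut, fat body or Malpighian tubule in which many fly P450s act. No culture was genetically modified or given an agent. Temperature was the only labelled difference, apart from the number of cells plated, which was 4500000 at 11 °C, 3500000 at 14 °C, 1700000 at 25 °C and 1500000 at 30 °C. Temperature and plated number cannot be told apart.

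P450 enzymes bind oxygen at a heme iron and insert an oxygen atom into a substrate, and they depend on a partner protein for electrons. Microsomal P450s receive them from the reductase Cpr, and mitochondrial P450s from ferredoxin and its reductase dare. In insects the superfamily falls into the CYP2, CYP3, CYP4 and mitochondrial clans. The CYP3 clan, which includes the large Cyp6 and Cyp9 families, is best known for the breakdown of plant toxins and insecticides, the CYP4 clan holds fatty acid and hydrocarbon enzymes, and several CYP2 and mitochondrial members make or inactivate the moulting hormone ecdysone.

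Levels are log2 of the background-corrected signal of a probe after each array was scaled to the 25 °C arrays on its median. Detection required spots flagged as well above background by the scanner software on 2 or 3 of the 3 arrays, and a gene was kept if this held at 1 or more temperatures. Between 53.9% and 61.1% of gene spots were well above background on the 12 arrays, and no gene spot was saturated. All 12 hemocyte markers examined were detected, whereas 3 of 9 fat body, 1 of 5 Malpighian tubule and 1 of 6 midgut markers on the array were. Among the hemocyte markers srp was well above background on all 12 arrays, but Hml on 9, PPO1 on 5 and NimC1 on 3. The summed log2 signal of the hemocyte markers was 13.87 to 14.19 at 11 °C, 13.77 to 14.12 at 14 °C, 14.14 to 14.39 at 25 °C and 14.48 to 14.81 at 30 °C. Of these 12 markers 5 were called higher at 30 than at 25 °C, among them Hml (2.95), vkg (2.58) and Col4a1 (2.12), and 1 (He) was called lower. At 11 °C 3 were called lower than at 25 °C (eater, -3.91, He, -1.63, and NimC1, -1.04) and 0 higher. Their part in the P450 results was not tested. All 6 neuronal markers were detected too, and their summed log2 signal ranged from 12.25 to 13.34 over all arrays. Replicate 1 of all 4 temperatures shared a slide, replicates 2 and 3 of 11 and 14 °C shared another, and the same replicates of 25 and 30 °C the last. In a bulk culture, fewer cells with a transcript and less transcript per cell cannot be told apart.

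More than 2 in 5 of the detected P450 genes differed between low temperature (11 and 14 °C) and high temperature (25 and 30 °C). A change was called if it was at least 2-fold with an adjusted p under 0.01 in limma's test (Benjamini-Hochberg adjustment over all 15117 features). By this criterion 7 P450 genes were higher and 14 lower at low temperature, or 44.7% of 47, where 20.6% of all features were called (9.23% higher and 11.4% lower). The median P450 change was -0.41 log2 units, compared with -0.17 for all features. The low and high arrays did not overlap at all for 18 of the 47 genes, a share near the 31.8% of all features with no overlap. With normexp background correction, which pulls dim signals together, 8 of the 21 calls remained: Cyp6a8, Cyp6a2 and Cyp9h1 higher, and Cyp4d2, Cyp4d20, Cyp6a23, Cyp6d2 and Cyp28d1 lower. With this correction 8.56% of all features were called. These counts describe the genes that passed the filter: 7 of them were well above background on 4 or fewer arrays, and a gene that passed only through the temperature at which it is high had to differ.

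Single temperatures were set against 25 °C, so that these comparisons share the 25 °C arrays. At 11 °C, 9 P450 genes were higher and 8 lower than at 25 °C (36.2% of 47, against 19.9% of all features, 8.73% higher and 11.2% lower). At 14 °C, 8 were higher and 3 lower (23.4% against 10.3%, of which 5.33% higher and 4.95% lower). At 30 °C, 12 were higher and 3 lower (31.9% against 7.55%), and the higher calls alone made up 25.5% of the P450 genes and 4.17% of all features (lower, 3.39%). Between 11 and 14 °C none was higher and 2 were lower (4.26% against 2.17%, of which 0.953% higher and 1.22% lower). In all, 30 P450 genes were called in at least 1 of the 5 comparisons, where 28.4% of all features were. Of the 12 genes higher at 30 °C, Cyp12a4 and Cyp309a1 passed the detection filter only through 30 °C, so that they had to differ. The 12 also hold the near-identical copies Cyp12d1-p and Cyp12d1-d. Cyp313b1, higher at 11 and 14 °C, passed only through 11 °C.

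**Figure D1:**
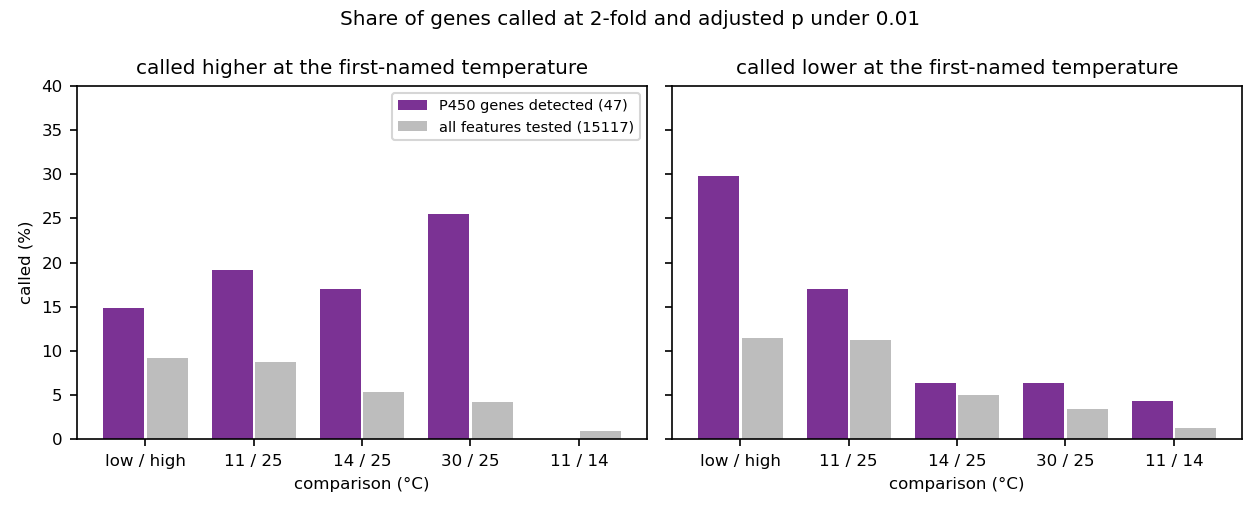
Bars give the percentage of the 47 detected P450 genes (purple) and of all 15117 features tested (grey) that were called higher (left) or lower (right) at the first-named temperature in each comparison. The P450 share was 25.5% for higher at 30 than at 25 °C, beside 4.17% of all features.

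The 47 detected genes did not move as a block. The CYP3 clan supplied 5 of the 7 genes that were higher at low temperature and 7 of the 14 that were lower, from 27 detected members. The CYP4 clan supplied the other 2 that were higher and 4 that were lower, from 12. Of the 6 mitochondrial members 1 was lower, and of the CYP2 clan both detected members were lower. Mean levels were highest at 30 °C for 19 genes, at 25 °C for 11, at 11 °C for 10 and at 14 °C for 7. For all features the share with the highest mean at 30 °C was 32.4%.

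**Figure D2:**
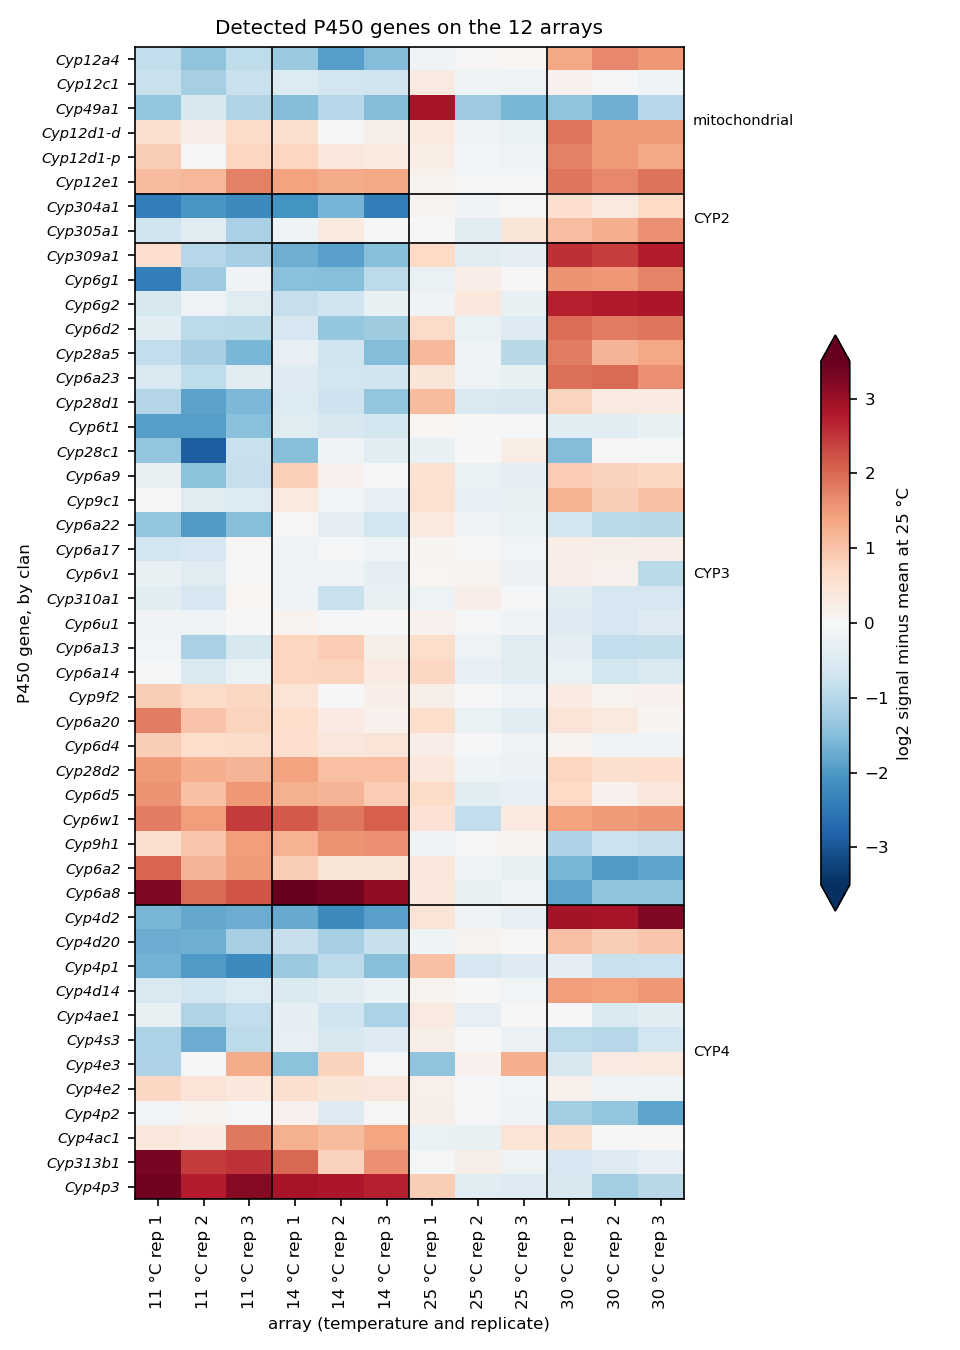
Each row is a detected P450 gene, grouped by clan and ordered within it by the low against high change, and each column an array. Colour gives the log2 signal minus the gene's mean at 25 °C, with red above and blue below it. Rows with blue at 11 and 14 °C and red at 30 °C (Cyp4d2, Cyp309a1) stand beside rows with the opposite order (Cyp6a8, Cyp4p3), and a single dark cell marks Cyp49a1 on 25 °C replicate 1.

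**Figure D3:**
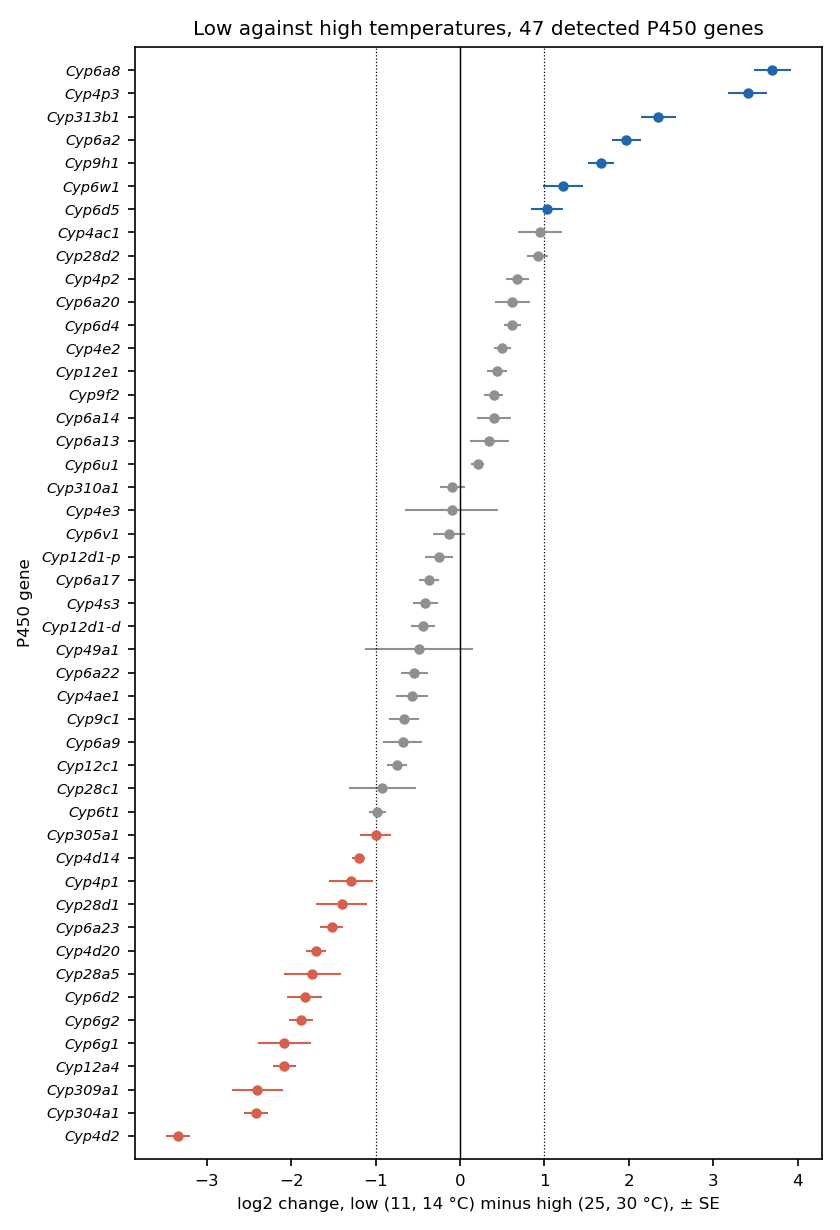
Points give the log2 change between low (11 and 14 °C) and high (25 and 30 °C) temperatures for each of the 47 genes, and bars the standard error of the fit. Blue marks the 7 genes called higher and red the 14 called lower. Dotted lines mark 2-fold, and the changes ran from -3.34 for Cyp4d2 to 3.70 for Cyp6a8.

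A level that was both lower at low than at high temperature and higher at 30 than at 25 °C was called for 8 genes: Cyp4d2, Cyp4d14, Cyp6d2, Cyp6g2, Cyp6a23, Cyp309a1, Cyp12a4 and Cyp305a1. The comparisons share the arrays of 30 °C, so that a high level at 30 °C alone can give both calls. The share of all features with both calls was not counted, so whether 8 genes is an unusual number cannot be told. Of the 8 genes 6, all but Cyp4d2 and Cyp12a4, had no call at 11 or 14 °C against 25 °C. Cyp4d2 (CG3466-RA), of the CYP4 clan, showed it most strongly. Its log2 signal was 7.56, 7.36 and 7.42 on the arrays of 11 °C, 7.38, 6.91 and 7.24 at 14 °C, 9.59, 9.0 and 8.85 at 25 °C, then 12.06, 12.03 and 12.40 at 30 °C. Every array of 25 °C lay above every colder one and every array of 30 °C above all others. The change was -3.34 ± 0.14 log2 units (SE, 10.1-fold, adjusted p = 2.03e-08) for low against high and 3.02 ± 0.20 (8.1-fold, adjusted p = 4.97e-06) for 30 against 25 °C. Each of the Cyp4d2 calls was kept in all of the alternative analyses.

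Its neighbour Cyp4d14 had a smaller range. Cyp4d14 log2 signals were 5.43, 5.32 and 5.49 at 11 °C, 5.46, 5.6 and 5.74 at 14 °C, 6.08, 5.95 and 5.88 at 25 °C, then 7.44, 7.37 and 7.50 at 30 °C. The arrays of 30 °C stood well apart, and the step between 14 and 25 °C was small. The log2 change was -1.20 ± 0.08 for low against high (adjusted p = 3.8e-07) and 1.47 ± 0.11 for 30 against 25 °C (adjusted p = 1.19e-05). At 11 and 14 °C it differed from 25 °C by -0.56 and -0.37 (adjusted p = 0.00196 and 0.0263), short of 2-fold. Cyp4d14 lost the low against high call with spike-in scaling (-0.95, adjusted p = 0.000147).

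Among the Cyp6 genes, Cyp6g2, which raises insecticide resistance when overexpressed in flies, was raised at 30 °C. Its log2 signal was 3.81, 4.20 and 3.96 at 11 °C, 3.56, 3.69 and 4.11 at 14 °C, 4.26, 4.76 and 4.11 at 25 °C, then 7.09, 7.16 and 7.22 at 30 °C. The arrays of 11 °C overlapped those of 14 and of 25 °C, while the highest array of 14 °C lay at the level of the lowest of 25 °C. Those of 30 °C stood apart from all others, by 2.78 ± 0.19 log2 units over 25 °C (6.86-fold, adjusted p = 6.51e-06). Cyp6d2 followed the same course, with 5.80, 5.24 and 5.21 at 11 °C, 5.58, 4.82 and 4.91 at 14 °C, 6.83, 5.94 and 5.70 at 25 °C, then 8.12, 7.98 and 8.03 at 30 °C on the log2 scale. Its change from 25 to 30 °C was 1.89 ± 0.29 (3.7-fold, adjusted p = 0.00105). For Cyp6a23 the log2 signals were 7.11, 6.73 and 7.22 at 11 °C, 7.19, 6.99 and 6.93 at 14 °C, 8.06, 7.45 and 7.37 at 25 °C, then 9.57, 9.61 and 9.22 at 30 °C. Again the largest step was from 25 to 30 °C (1.84 ± 0.20, 3.58-fold, adjusted p = 0.000121). The low against high changes were -1.88 ± 0.14 for Cyp6g2, -1.84 ± 0.21 for Cyp6d2 and -1.52 ± 0.14 for Cyp6a23, with adjusted p of 7.13e-07, 1.93e-05 and 5.07e-06. Cyp6g2 was dim in the cold, well above background on 1 array of 11 °C and 2 of 14 °C. Its low against high call was lost with normexp background correction (-0.87).

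The other 3 genes with this pattern were well above background on fewer arrays than Cyp6g2. Cyp12a4, a mitochondrial P450 whose overexpression gives resistance to the insecticide lufenuron, was well above background on no array of 11 or 14 °C, 1 array of 25 °C and all 3 of 30 °C. Its measured log2 signals were 2.66, 2.11 and 2.63 at 11 °C, 2.24, 1.59 and 2.01 at 14 °C, 3.41, 3.58 and 3.59 at 25 °C, then 4.88, 5.20 and 5.04 at 30 °C. The measured low against high change was -2.08 ± 0.14 (adjusted p = 3.37e-07). With the dim cold arrays at their floor, low temperature was 1.81-fold lower than high temperature. The floor of an array is the lowest signal that counted as well above background on it, or the probe's own value if that was higher. Only the lower side was floored. The fold is thus a lower bound, given as at least, only where every array of the higher side was well above background. For Cyp12a4 it is not. Each adjusted p belongs to a measured change, and no bound was tested. At 30 °C Cyp12a4 was higher than at 25 °C by 1.51 ± 0.19 log2 units (adjusted p = 0.000301). It was also called lower than at 25 °C at 14 °C (-1.58 ± 0.19, adjusted p = 0.000158) and at 11 °C (-1.06 ± 0.19, adjusted p = 0.000945). With the cold arrays at their floor the fold was 1.28 at 14 °C, and at 11 °C it was not above 1. The 11 °C call was lost without 11 °C replicate 2 (-0.88, adjusted p = 0.0037), with scaling on the 75th percentile (-0.82) or the spike-in controls (-0.75), with quantile normalisation (adjusted p = 0.0131) and with slide as a block (-0.68, adjusted p = 0.031).

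Cyp309a1 was well above background on 1 array of 11 °C and on the 3 arrays of 30 °C. The log2 signals were 3.80, 2.22 and 2.05 at 11 °C, 1.51, 1.30 and 1.72 at 14 °C, 3.91, 2.85 and 2.86 at 25 °C, then 5.78, 5.63 and 5.97 at 30 °C. Replicate 1 was the highest at both 11 and 25 °C, and only the 30 °C arrays stood apart. At 30 °C the gene was measured 2.59 ± 0.42 log2 units above 25 °C (adjusted p = 0.00137), with a bound of at least 3.99-fold. Its measured low against high change was -2.40 ± 0.30 (adjusted p = 3.95e-05), or 1.93-fold with the dim cold arrays at their floor. No array of 25 °C was well above background, so the 1.93-fold is not a lower bound. Cyp305a1, of the CYP2 clan, was the weakest of the 8, with 2.69, 3.01 and 2.24 at 11 °C, 3.24, 3.73 and 3.34 at 14 °C, 3.37, 2.97 and 3.80 at 25 °C, then 4.47, 4.65 and 4.97 at 30 °C. The arrays of 14 and 25 °C overlapped. The gene was well above background on 2 of 6 cold arrays and 1 of 3 at 25 °C. Its measured changes were -1.0 ± 0.18 for low against high (adjusted p = 0.000569) and 1.32 ± 0.25 for 30 against 25 °C (adjusted p = 0.00367). With the dim arrays of the lower side at their floor, these came to 1.39-fold (no bound, as 25 °C held dim arrays) and at least 1.85-fold. The first was lost without any of 11 °C replicate 3, 14 °C replicate 1, 14 °C replicate 3, 25 °C replicate 3 and 30 °C replicate 3 (-0.90 to -0.98), and the second without 25 °C replicate 1, 25 °C replicate 2, 30 °C replicate 2 or 30 °C replicate 3, at adjusted p of 0.011 to 0.0191.

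**Figure D4:**
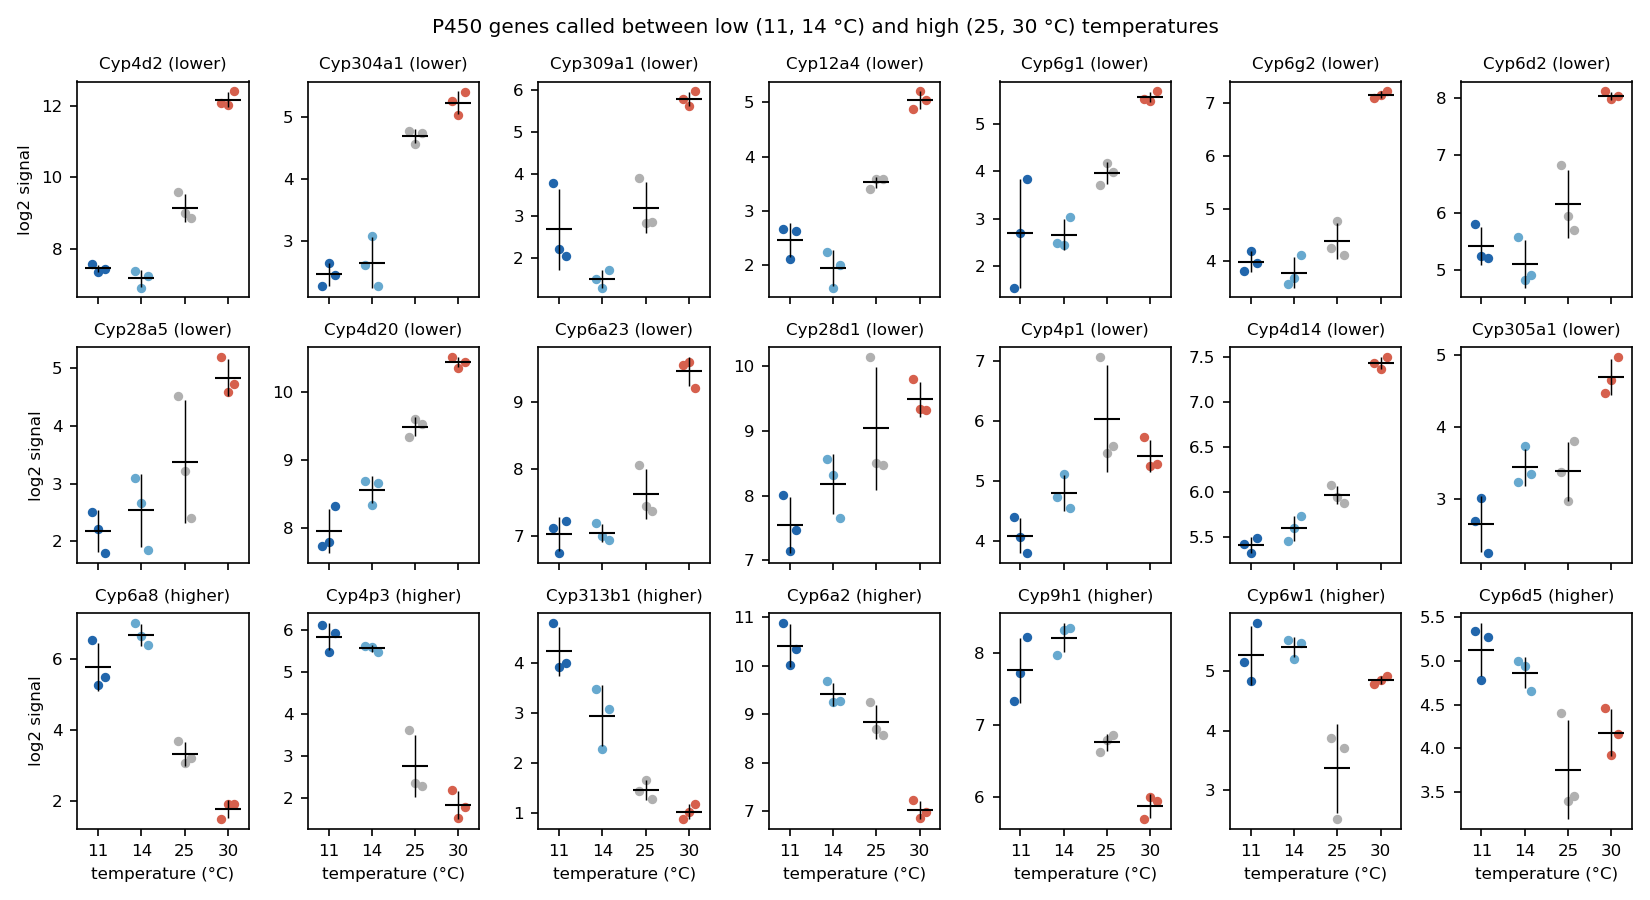
Each panel shows a P450 gene called between low and high temperatures, the 14 lower ones first and the 7 higher ones last. Points are the log2 signals of the 3 arrays at each temperature, the long bar their mean and the vertical line 1 SD to either side. Vertical scales differ between panels. Cyp4d2 is lowest at 11 and 14 °C and highest at 30 °C, whereas Cyp6a8 is lowest at 30 °C.

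A further 6 genes were lower at low temperature with no call between 30 and 25 °C. Cyp304a1, of the CYP2 clan, had log2 signals of 2.27, 2.64 and 2.45 at 11 °C, 2.60, 3.07 and 2.26 at 14 °C, 4.78, 4.56 and 4.74 at 25 °C, then 5.27, 5.04 and 5.40 at 30 °C. It was well above background on all 6 warm arrays and on 1 of the 6 cold ones, an array of 14 °C. The measured change was -2.42 ± 0.14 (adjusted p = 1.32e-07) for low against high, or at least 2.87-fold with the dim arrays at their floor. For 11 against 25 °C the measured change was -2.24 ± 0.20 (adjusted p = 6.53e-06), or at least 2.0-fold. At 14 °C the measured change from 25 °C was -2.05 ± 0.20 (adjusted p = 3.91e-05), or at least 2.81-fold in the same way. Cyp4d20 changed in steps over the whole range, with 7.74, 7.79 and 8.33 at 11 °C, 8.69, 8.34 and 8.67 at 14 °C, 9.34, 9.61 and 9.53 at 25 °C, then 10.51, 10.36 and 10.45 at 30 °C. Each temperature lay above the one below it with no overlap between arrays. For Cyp4d20 the low against high change was -1.71 ± 0.12 (3.27-fold, adjusted p = 5.28e-07), and 11 °C was lower than 25 °C (-1.54 ± 0.17, adjusted p = 3.15e-05). Its 2 probes gave low against high changes of -2.10 and -1.32. The 11 °C call was lost with the brightest probe alone (-0.98) and with normexp background correction (-0.93).

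Cyp6g1, the gene whose overexpression is the best-known basis of resistance to DDT in Drosophila, had log2 signals of 1.55, 2.70 and 3.85 at 11 °C, 2.49, 2.46 and 3.05 at 14 °C, 3.72, 4.18 and 3.98 at 25 °C, then 5.53, 5.48 and 5.69 at 30 °C. One array of 11 °C reached the level of 25 °C, so low and high arrays overlapped, and the measured change of -2.08 ± 0.31 (adjusted p = 0.000158) came with a wide spread at 11 °C (SD 1.15). Cyp6g1 was well above background on 3 of the 6 cold arrays, and with the dim ones at their floor it was at least 2.25-fold lower. Cyp28d1, linked to nicotine resistance in flies, had 8.01, 7.15 and 7.46 at 11 °C, 8.56, 8.31 and 7.66 at 14 °C, 10.14, 8.5 and 8.47 at 25 °C, then 9.80, 9.34 and 9.32 at 30 °C. Replicate 1 of 25 °C was its highest array, and low and high arrays overlapped slightly (-1.40 ± 0.30, 2.64-fold, adjusted p = 0.0019).

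Cyp28a5 and Cyp4p1 were likewise highest on replicate 1 among the arrays of 25 °C. The log2 signals of Cyp28a5 were 2.51, 2.22 and 1.79 at 11 °C, 3.09, 2.67 and 1.85 at 14 °C, 4.51, 3.22 and 2.40 at 25 °C, then 5.19, 4.58 and 4.73 at 30 °C. It was well above background on no cold array. The measured low against high change was -1.75 ± 0.34 (adjusted p = 0.000937), or 1.59-fold with the dim cold arrays at their floor. The 1.59-fold is not a lower bound, since 25 °C held dim arrays as well. The log2 signals of Cyp4p1 were 4.39, 4.06 and 3.80 at 11 °C, 4.73, 5.12 and 4.54 at 14 °C, 7.07, 5.46 and 5.59 at 25 °C, then 5.73, 5.25 and 5.29 at 30 °C. Low and high arrays of Cyp4p1 did not overlap, and the level at 30 °C was below the mean at 25 °C. Its changes were -1.29 ± 0.26 (2.45-fold, adjusted p = 0.00132) for low against high and -1.96 ± 0.37 (3.88-fold, adjusted p = 0.00123) for 11 against 25 °C.

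In the opposite direction, 7 P450 genes were higher at low temperature. Cyp6a8 (CG10248-RA), a P450 inducible by drugs such as phenobarbital and found at raised levels in DDT-resistant strains, had the largest measured low against high change among the detected members. Its log2 signal was 6.56, 5.28 and 5.51 at 11 °C, 7.03, 6.65 and 6.4 at 14 °C, 3.69, 3.05 and 3.20 at 25 °C, then 1.47, 1.91 and 1.91 at 30 °C. All 6 cold arrays were well above background, against 1 array of 25 °C and none of 30 °C. The measured change was 3.70 ± 0.22 (adjusted p = 1.82e-07) for low against high, 2.48 ± 0.31 (adjusted p = 8.57e-05) for 11 against 25 °C and 3.38 ± 0.31 (adjusted p = 3.3e-05) for 14 against 25 °C. With the dim warm arrays at their floor, these were at least 6.64-fold, 4.16-fold and 7.82-fold. The measured change from 25 to 30 °C was -1.54 ± 0.31 (adjusted p = 0.00511), or 1.01-fold only with the arrays of 30 °C at their floor. That call was lost without any 1 of the 6 arrays compared, at adjusted p of 0.0104 to 0.0219.

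Cyp6a2, also inducible by phenobarbital and able to metabolise insecticides, was measured well above background on all 12 arrays and changed over the full range. Its log2 signals were 10.88, 10.02 and 10.34 at 11 °C, 9.69, 9.26 and 9.27 at 14 °C, 9.25, 8.70 and 8.58 at 25 °C, then 7.23, 6.86 and 6.99 at 30 °C. Means fell with each rise in temperature, and low and high arrays did not overlap, although the lowest array of 14 °C (9.26) and the highest of 25 °C (9.25) nearly met. The change was 1.97 ± 0.17 (3.93-fold, adjusted p = 2.7e-06) for low against high, 1.57 ± 0.24 (2.97-fold, adjusted p = 0.000332) for 11 against 25 °C and -1.82 ± 0.24 (3.52-fold, adjusted p = 0.00041) for 30 against 25 °C. It was thus called on both sides of 25 °C, in opposite directions, as was Cyp6a8.

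Cyp4p3, of the CYP4 clan, had log2 signals of 6.12, 5.49 and 5.94 at 11 °C, 5.63, 5.59 and 5.48 at 14 °C, 3.61, 2.37 and 2.29 at 25 °C, then 2.20, 1.52 and 1.79 at 30 °C. The cold arrays lay close together and all stood above the warm ones, of which only 1 was well above background. Its measured changes were 3.41 ± 0.23 (adjusted p = 3.81e-07) for low against high, 3.1 ± 0.32 (adjusted p = 2.2e-05) for 11 and 2.81 ± 0.32 (adjusted p = 0.000116) for 14 against 25 °C. With the dim arrays at their floor, these were at least 4.5-fold, 4.16-fold and 3.42-fold. The 2 probes of Cyp4p3 gave low against high changes of 3.00 and 3.83. Cyp313b1, of the same clan, was near background, with 4.80, 3.92 and 3.99 at 11 °C, 3.48, 2.28 and 3.08 at 14 °C, 1.44, 1.67 and 1.28 at 25 °C, then 0.88, 1.02 and 1.18 at 30 °C. The measured changes were 2.35 ± 0.21 for low against high (adjusted p = 3.73e-06) and 2.77 ± 0.30 for 11 against 25 °C (adjusted p = 2.99e-05). No warm array was well above background, and with these arrays at their floor the changes were only 1.06-fold and 1.43-fold. Neither is a lower bound, since some cold arrays were dim as well. The call at 14 °C had no bound above 1 and was lost without 14 °C replicate 1, 14 °C replicate 3, 25 °C replicate 1 or 25 °C replicate 3 (adjusted p of 0.0106 to 0.0163).

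Cyp9h1 was well above background on every array. Its log2 signals were 7.33, 7.73 and 8.22 at 11 °C, 7.98, 8.32 and 8.35 at 14 °C, 6.63, 6.79 and 6.86 at 25 °C, then 5.69, 6.0 and 5.94 at 30 °C. The mean was highest at 14 °C, and the change was 1.67 ± 0.15 (3.18-fold, adjusted p = 2.77e-06) for low against high and 1.45 ± 0.21 (2.74-fold, adjusted p = 0.000411) for 14 against 25 °C. Cyp6d5 had 5.34, 4.78 and 5.27 at 11 °C, 5.0, 4.94 and 4.66 at 14 °C, 4.41, 3.4 and 3.46 at 25 °C, then 4.46, 3.92 and 4.16 at 30 °C. It was higher at 11 than at 25 °C by 1.37 ± 0.27 (adjusted p = 0.00155) and lay just past the 2-fold limit for low against high (1.03 ± 0.19, adjusted p = 0.000732). That call was lost without 11 °C replicate 1, 11 °C replicate 3, 14 °C replicate 1, 25 °C replicate 2, 25 °C replicate 3 or 30 °C replicate 2 (0.94 to 0.99). The call at 14 °C (1.11 ± 0.27, adjusted p = 0.00891) was lost without any 1 of 10 arrays, those other than 11 °C replicate 2 and 25 °C replicate 1 (adjusted p of 0.0108 to 0.0377). Cyp6d5 was well above background on 2 of 3 arrays of 25 °C and on all others. With the dim array at its floor, 11 °C was at least 2.23-fold higher than 25 °C. The low against high and 14 °C changes then fell under 2-fold (1.89 and 1.86).

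Cyp6w1 and Cyp12e1 were called higher than at 25 °C both above and below it. For Cyp12e1, a mitochondrial P450, the log2 signals were 8.94, 9.0 and 9.60 at 11 °C, 9.26, 9.13 and 9.20 at 14 °C, 7.96, 7.78 and 7.77 at 25 °C, then 9.71, 9.53 and 9.74 at 30 °C. The arrays of 25 °C lay below all 9 others. It was higher than at 25 °C by 1.34 ± 0.17 (2.53-fold, adjusted p = 7.06e-05) at 11 °C, 1.36 ± 0.17 (2.57-fold, adjusted p = 0.000158) at 14 °C and 1.82 ± 0.17 (3.53-fold, adjusted p = 3.2e-05) at 30 °C, and these calls were kept in every alternative analysis. Cyp6w1, reported at raised levels in DDT-resistant strains, had 5.16, 4.83 and 5.81 at 11 °C, 5.53, 5.21 and 5.47 at 14 °C, 3.88, 2.51 and 3.71 at 25 °C, then 4.78, 4.85 and 4.92 at 30 °C. It was higher than at 25 °C by 1.90 ± 0.33, 2.03 ± 0.33 and 1.48 ± 0.33 at 11, 14 and 30 °C, with adjusted p of 0.000785, 0.000999 and 0.00891, and low exceeded high temperature by 1.22 ± 0.24 (adjusted p = 0.000983). Its 25 °C arrays spread widely (SD 0.75), and 2 of the 3 were well above background. With the dim one at its floor, low exceeded high temperature by at least 1.98-fold, under the limit. At 11, 14 and 30 °C the gene was then at least 2.67-fold, 2.93-fold and 2-fold above 25 °C. The 30 °C call was lost without any 1 of 9 arrays, at adjusted p of 0.0128 to 0.0335 (11 °C replicate 1 and all those of 14 and 30 °C, besides 25 °C replicates 2 and 3).

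Cyp12d1-p and Cyp12d1-d, mitochondrial P450s that are induced by several xenobiotics, were called at 30 °C only. Cyp12d1-d had log2 signals of 12.90, 12.58 and 13.01 at 11 °C, 12.90, 12.39 and 12.56 at 14 °C, 12.69, 12.23 and 12.13 at 25 °C, then 14.21, 13.84 and 13.84 at 30 °C. Cyp12d1-p had 12.42, 11.53 and 12.32, then 12.30, 11.97 and 11.91, then 11.83, 11.47 and 11.38, and 13.32, 13.05 and 12.91 at the same temperatures. The changes from 25 to 30 °C were 1.61 ± 0.20 (3.06-fold, adjusted p = 0.00023) for Cyp12d1-d and 1.53 ± 0.24 (2.88-fold, adjusted p = 0.000961) for Cyp12d1-p. These genes are near-identical copies, and their probes may each read both transcripts, which was not tested. Both are counted among the 12 genes higher at 30 °C. Cyp4p2 was the reverse case, with 5.29, 5.5 and 5.35 at 11 °C, 5.54, 4.93 and 5.42 at 14 °C, 5.6, 5.31 and 5.27 at 25 °C, then 4.16, 4.02 and 3.54 at 30 °C. It was lower at 30 than at 25 °C (-1.48 ± 0.20, 2.8-fold, adjusted p = 0.000402), and its arrays of the other 3 temperatures overlapped.

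A group of 4 genes was called for 11 against 25 °C but not for 14 or 30 against 25 °C, nor between low and high. Cyp6t1 had log2 signals of 5.78, 5.76 and 6.25 at 11 °C, 7.27, 7.14 and 7.07 at 14 °C, 7.78, 7.72 and 7.62 at 25 °C, then 7.33, 7.29 and 7.45 at 30 °C. All arrays of 11 °C lay below the rest, and the gene was lower at 11 °C than at 25 °C (-1.77 ± 0.14, 3.42-fold, adjusted p = 3.44e-06) and than at 14 °C (-1.23 ± 0.14, 2.34-fold, adjusted p = 0.000915). Cyp6a22 had 7.46, 6.84 and 7.33 at 11 °C, 8.86, 8.51 and 8.17 at 14 °C, 9.15, 8.71 and 8.59 at 25 °C, then 8.19, 7.88 and 7.86 at 30 °C. It too was lowest at 11 °C, by 1.61 log2 units from 25 °C (-1.61 ± 0.23, adjusted p = 0.000165) and 1.30 from 14 °C (-1.30 ± 0.23, adjusted p = 0.00556). Cyp6a22 and Cyp6t1 were the only P450 genes called between 11 and 14 °C. The Cyp6a22 call there was lost without any 1 of 7 arrays, at adjusted p of 0.0103 to 0.026 (11 °C replicates 1 and 2, 14 °C replicates 1 and 2, 25 °C replicate 2, 30 °C replicates 2 and 3). With only the compared temperatures in the fit both were lost (adjusted p = 0.0324 for Cyp6a22 and 0.0179 for Cyp6t1). Normexp background correction removed the calls of Cyp6t1 against 14 °C (-0.74) and, for 11 against 25 °C, the other one (-0.99).

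Cyp4s3 and Cyp6a20 were called in that comparison alone. Cyp4s3 had log2 signals of 2.68, 2.04 and 2.88 at 11 °C, 3.51, 3.24 and 3.33 at 14 °C, 3.99, 3.77 and 3.59 at 25 °C, then 2.88, 2.80 and 3.11 at 30 °C. It was well above background on no array of 11 °C and on 1 of 25 °C. The measured change was -1.25 ± 0.21 (adjusted p = 0.000474), or 1.07-fold only with the arrays of 11 °C at their floor. The 1.07-fold is not a lower bound, since 25 °C held dim arrays as well. Cyp6a20, which affects aggression in male flies, had 12.02, 11.24 and 11.00 at 11 °C, 10.85, 10.51 and 10.38 at 14 °C, 10.84, 10.01 and 9.84 at 25 °C, then 10.68, 10.58 and 10.33 at 30 °C. It was higher at 11 °C by 1.19 ± 0.30 (2.29-fold, adjusted p = 0.00677). This call was lost without 11 °C replicate 1 or 2, 14 °C replicate 2, 25 °C replicate 2 or 3, or 30 °C replicate 2 (0.90 to 1.28, adjusted p of 0.0108 to 0.0292). Cyp28d2 was called at both low temperatures, with 6.70, 6.47 and 6.39 at 11 °C, 6.61, 6.26 and 6.26 at 14 °C, 5.57, 5.06 and 5.0 at 25 °C, then 5.97, 5.78 and 5.80 at 30 °C. Its change was 1.31 ± 0.17 at 11 °C (2.48-fold, adjusted p = 0.000104) and 1.17 ± 0.17 at 14 °C (2.25-fold, adjusted p = 0.000491). For low against high Cyp28d2 stayed just inside the 2-fold limit (0.92 ± 0.12, adjusted p = 6.09e-05), and so did Cyp6t1 (-0.98 ± 0.10, adjusted p = 8.4e-06).

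The other 17 detected P450 genes were called in none of the comparisons: Cyp12c1, Cyp28c1, Cyp310a1, Cyp49a1, Cyp4ac1, Cyp4ae1, Cyp4e2, Cyp4e3, Cyp6a9, Cyp6a13, Cyp6a14, Cyp6a17, Cyp6d4, Cyp6u1, Cyp6v1, Cyp9c1 and Cyp9f2. Some of these had narrow spreads, so that small differences could be measured. Cyp6a17, which flies need for normal temperature preference, had a low against high change of -0.37 ± 0.12 (adjusted p = 0.0181), with log2 signals of 11.61 to 12.30 on the cold and 12.16 to 12.49 on the warm arrays. Cyp6u1 changed by 0.21 ± 0.08 (adjusted p = 0.0384), Cyp6d4 by 0.62 ± 0.10 (adjusted p = 0.000196) and Cyp4e2 by 0.50 ± 0.10 (adjusted p = 0.00116). Low and high arrays of Cyp6d4 and Cyp4e2 did not overlap, at less than 2-fold. Cyp12c1 was lower at low temperature by 0.75 log2 units (-0.75 ± 0.12, adjusted p = 0.000191), again with no overlap.

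Cyp4ac1 and Cyp9c1 lay close to a call. Cyp4ac1 was well above background on 4 of 6 cold and on no warm arrays, and its low against high change of 0.95 ± 0.26 (adjusted p = 0.00915) fell short on fold alone. It was called in 7 alternative analyses, those with 75th percentile, quantile or spike-in scaling among them. Cyp9c1 was higher at 30 than at 25 °C by 1.04 ± 0.25 (2.05-fold, adjusted p = 0.0131), with no overlap between arrays, and missed on the adjusted p alone. It was called in 8 alternatives, including slide as a block and the replicate number as a block.

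Cyp4e3 and Cyp49a1 varied widely between arrays of 1 temperature. Cyp4e3, which contributes to insecticide tolerance in flies, had log2 signals of 2.97, 2.62, 2.66 and 3.51 on the replicate 1 arrays of 11, 14, 25 and 30 °C, which share a slide, and 4.03 to 5.36 on the other 8 arrays. Its low against high change was -0.10 ± 0.55. Cyp49a1 had 7.10 on 25 °C replicate 1 and 2.52 to 3.67 on the remaining arrays, and was well above background on that array and 2 of 14 °C. Its change of -0.49 ± 0.64 rests on that single array.

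The 34 genes that did not pass the detection filter came mainly from the CYP4 clan, in which 12 of 32 genes were detected, as against 27 of 36 in the CYP3 clan, 6 of 9 in the mitochondrial clan and 2 of 4 in the CYP2 clan. No array showed 24 of them well above background, and 10 were well above it on 1 to 4 arrays. The CYP2 genes were Cyp18a1, which inactivates ecdysteroids, and Cyp303a1, which acts in bristle development. The mitochondrial ones were Cyp12a5, Cyp12b2 and Cyp301a1, the last with a role in cuticle formation. Those of the CYP3 clan were Cyp308a1, Cyp309a2, Cyp317a1, Cyp6a18, Cyp6a19, Cyp6a21, Cyp6t3, Cyp9b1 and Cyp9b2. In the CYP4 clan they were Cyp311a1, Cyp312a1, Cyp313a1, Cyp313a2, Cyp313a3, Cyp313a4, Cyp313a5, Cyp316a1, Cyp318a1, Cyp4aa1, Cyp4ac2, Cyp4ac3, Cyp4ad1, Cyp4c3, Cyp4d1, Cyp4d8, Cyp4d21, Cyp4e1, Cyp4g1 and Cyp4g15. Cyp4g1 makes the cuticular hydrocarbons of oenocytes. Of the ecdysone-producing Halloween P450s, which carry other names (spo, spok, phtm, dib, sad and shd), none of 6 was detected. A gene below background may be expressed at a level that these arrays do not resolve.

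Many fly P450 genes lie side by side. By the RefSeq annotation (Release 6 plus ISO1 MT), the members formed 15 runs of 2 or more with no other protein-coding gene between them, covering 43 genes of which 24 were detected. In 7 runs 2 or more members were detected. In 2 of these runs neighbours were called in opposite directions between low and high temperature. The run of 9 genes on 2R from Cyp6a22 to Cyp317a1 held Cyp6a8 (3.70) and, in the same run, Cyp6a23 (-1.52), while Cyp6a17 (-0.37), Cyp6a9 (-0.68) and Cyp6a20 (0.62) were not called and Cyp6a19, Cyp6a21 and Cyp317a1 were not detected. In the run of Cyp4p2, Cyp4p1 and Cyp4p3 the changes were 0.68, -1.29 and 3.41, and at 30 °C Cyp4p2 alone was called.

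Other neighbours moved alike. Cyp6g1 and Cyp6g2 were both lower at low temperature (-2.08 and -1.88), and the third gene of their run, Cyp6t3, was not detected. On the X chromosome Cyp4d14 and Cyp4d2 were both lower at low than at high temperature and higher at 30 than at 25 °C, whereas the adjacent Cyp4ae1 was not called (-0.57). Cyp6a14 and Cyp6a13 had nearly equal changes (0.40 and 0.35), neither called. Cyp28d2 and Cyp28d1, neighbours on 2L, differed in sign (0.92 and -1.40), and only the second was called. Close copies can share probe signal, so likeness between neighbours cannot be told apart from cross-hybridisation here.

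**Figure D5:**
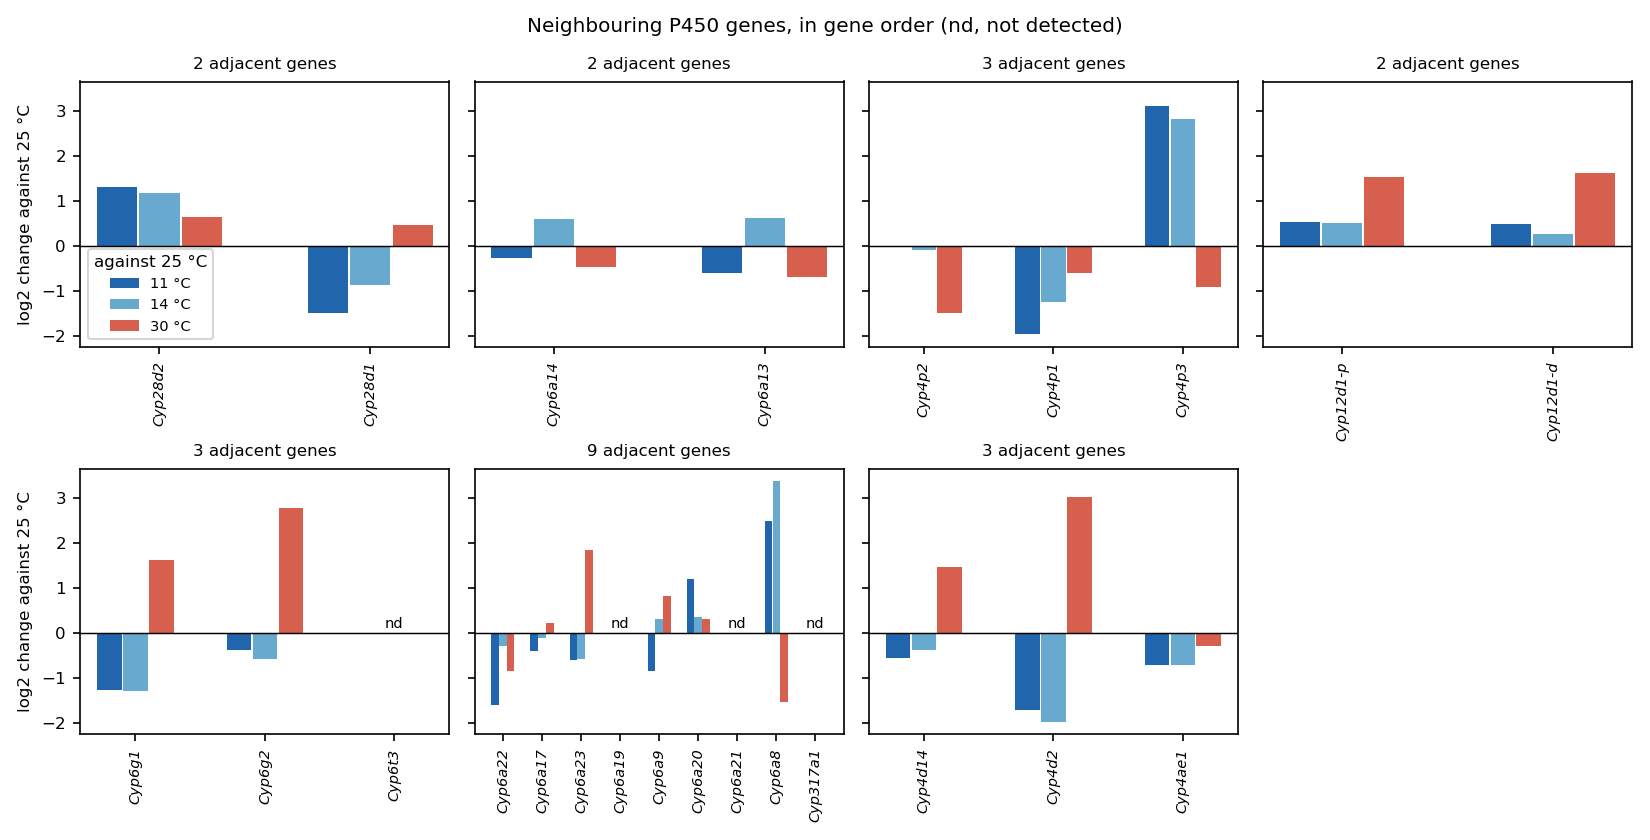
Panels show the 7 runs of adjacent P450 genes with 2 or more detected members, in gene order and without distances. Bars give the log2 change at 11, 14 and 30 °C against 25 °C, and nd marks genes that were not detected. In the 9-gene run Cyp6a8 is up at 11 and 14 °C and down at 30 °C, while Cyp6a23, 5 places away, is up at 30 °C only.

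None of the genes for redox partners and heme synthesis was called, but dare, Alas and FeCH were called lower at low temperature with slide as a block (-1.07, -1.06 and -1.19, adjusted p = 0.000555, 0.00362 and 0.000157). Of 7 redox partner genes 6 were detected and none was called in any of the 5 comparisons, with a median low against high change of -0.16 (all features, -0.17). Cpr, the electron donor of microsomal P450s, had mean log2 signals of 13.09 ± 0.14 (SD, n = 3), 12.98 ± 0.04, 13.13 ± 0.25 and 13.14 ± 0.16 at 11, 14, 25 and 30 °C. Its low against high change was -0.10 ± 0.10 (adjusted p = 0.427). The ferredoxin reductase dare was lower at low temperature by 0.76 log2 units (-0.76 ± 0.12, adjusted p = 0.000281), short of 2-fold. The ferredoxins Fdx1 and Fdx2 changed by 0.39 ± 0.12 (adjusted p = 0.017) and 0.17 ± 0.11 (adjusted p = 0.191). All 9 heme genes were detected and none was called, with a median change of -0.31. Alas, the first enzyme of heme synthesis, changed by -0.68 ± 0.19 (adjusted p = 0.00784) and FeCH, the last, by -0.96 ± 0.13 (adjusted p = 8.24e-05). FeCH was also called without 25 °C replicate 2 (-1.0) or 25 °C replicate 3 (-1.03).

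Of 12 transcription factors and partners with known or proposed effects on xenobiotic or hormone responses, 10 were detected. Keap1, the inhibitor that keeps the xenobiotic factor cnc in check, was higher at low temperature (1.42 ± 0.14, adjusted p = 8.08e-06). maf-S, the dimer partner of cnc, was lower (-1.19 ± 0.07, adjusted p = 2.03e-07), and cnc itself changed by -0.02 ± 0.10 (adjusted p = 0.872). The maf-S call was lost with 75th percentile or spike-in scaling. The nuclear receptor Hr96, which takes part in xenobiotic responses, changed by -0.24 ± 0.13 (adjusted p = 0.125), and Hr38, well above background on 5 of 12 arrays, was called higher at 14 than at 25 °C and in no other comparison. The median change of these 10 genes was 0.09.

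Replicate 1 of 25 °C read higher than the other arrays of its group for many P450 genes. It exceeded both in 35 of 47 genes and was more than 2-fold above their mean in 8 (Cyp49a1, Cyp28a5 and Cyp28d1 among them), whereas 4.86% of all features were more than 2-fold above. The share of all features in which it exceeded both was not counted, so whether 35 of 47 is unusual cannot be told. The median excess was 0.41 log2 units for the P450 genes and 0.22 for all features. Without that array 8 P450 genes were called higher and 14 lower at low temperature, and 13 higher and 2 lower at 30 than at 25 °C. On slide 1, the only one to hold all temperatures, all 21 low against high calls had the same sign. Of these 19 were at least 2-fold, the exceptions being Cyp305a1 (-0.96) and Cyp6d5 (0.74). The arrays of slide 1 also entered the fit that gave the calls, so this likeness was partly fixed in advance. The share for all called features was not tested. With slide as a block, which leaves the low against high contrast to the 4 arrays of that slide, 19 P450 genes were called, 18 of them in common with the 21, and 21.1% of all features. The low against high calls lost were those of Cyp305a1, Cyp6d5 and Cyp6w1 (1.01, adjusted p = 0.081), and for Cyp6w1 those against 25 °C were lost too (adjusted p of 0.0131 to 0.0225). Those of Cyp12a4 at 11 °C and Cyp6d5 at 14 °C (0.82, adjusted p = 0.0272) against 25 °C were lost as well.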

How the data were processed

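Total RNA of 12 S2R+ cultures was hybridised to single-colour Agilent arrays. The authors extracted intensities with Feature Extraction 10.7.3.1 (per the file headers), and the background-corrected, spatially detrended processed signal was used. A deposited table of log2 values, median-scaled by the authors, matched these signals after a shift for every probe (column medians 5.02 to 5.07). It served as an alternative. The genome build of the array design is not given in the sources used here.

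Spots with outlier flags and control spots were left out, log2 intensities were scaled on the median to the 25 °C arrays, and probes were averaged per gene. Of 32162 gene probes 19488 (60.6%) matched a RefSeq gene through their CG identifier, a synonym or a transcript accession. P450 symbols numbered 83, of which Cyp6a16 and Cyp9f3 had no matching probe, and 2 pseudogene symbols were left out. Features with a value on at least 10 arrays were fitted with limma 3.58.1 (R 4.3.3), with a mean per temperature over all 12 arrays. Adjusted p-values are Benjamini-Hochberg values over 15117 features. The study gives the 2-fold and 0.01 thresholds, and the test behind them is not given in the sources used here. A called gene with dim arrays on its lower side also had them set at their floor, a step chosen after seeing the data. Of the detected members 37 had 1 probe and 10 had 2 or 3, none with probes of opposite sign (largest gap 0.99). Comparisons against 25 °C share their control arrays. The fit was checked on simulated data.

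Members, lists and tests were chosen with earlier results of these data known. All members were named, and those called in 1 or more comparisons were given array by array. Array number limits the precision, and p-values measure the spread between 3 labelled replicates. Alternatives covered scaling, background, filters, probes, slide, replicate number and each array left out.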

Additional observations from a re-analysis of the deposited data

How the results depend on the processing

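No called P450 change took the opposite sign in any alternative analysis. The calls kept in all of them were 8 of 21 for low against high, 4 of 17 for 11, 4 of 11 for 14 and 9 of 15 for 30 against 25 °C, and 0 of 2 for 11 against 14 °C. Normexp with an offset of 50, which compresses dim probes, gave 8, 5, 4, 11 and 1 calls for low against high, 11, 14 and 30 against 25 °C and 11 against 14 °C. All were main calls except at 30 °C, where 9 of the 11 were. Of all features 8.56%, 9.14%, 3.57%, 2.98% and 1.05% were called in the same order. The correction used median spot signals, since no mean signals were used here. On each array 0 to 9 spots with a local background more than 20 above the array median were given that median. This step was chosen after seeing the data, because without it 0 features were called. A mean signal over 100, which took dimmer features out of the test, gave 11, 10 and 5 calls for low against high, 11 and 14 against 25 °C. Of these 11, 9 and 4 were main calls. Of the 10565 features then tested, 785 were called higher and 1167 lower for low against high. For 11 against 25 °C these were 744 and 1303, and for 14 against 25 °C 459 and 606. For 11 against 14 °C, where 2 genes were called, there was 1 call with no filter on dim probes, 6 with slide as a block (2.71% of all features) and 0 with only the compared temperatures in the fit.

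The replicate number as a block gave 21 calls for low against high, 19 for 11, 13 for 14 and 17 for 30 against 25 °C, and 4 for 11 against 14 °C. Of all 15117 features it called 1401 higher and 1744 lower for low against high, and 1352 and 1780 for 11 against 25 °C. For 14 and 30 against 25 °C these were 837 and 799, and 665 and 568, and for 11 against 14 °C 167 and 183. Same-numbered arrays correlated at 0.089 to 0.573 (mean 0.27, other pairs -0.128), and 6 of 12 arrays were closest to their own number, so the numbers were not taken as pairs. Replicate 1 arrays, which share a slide, correlated at 0.304 to 0.573 with one another and at -0.474 to -0.143 with other numbers. For them slide and replicate number cannot be told apart, and the main fit included neither. For the partner, heme and regulator lists, the 2 calls became 1 with the 75th percentile, 1 with spike-in scaling and 5 with slide as a block (dare, Alas and FeCH added). Leaving out 1 array gave 20 to 22 calls for low against high, 16 to 18 for 11, 9 to 13 for 14 and 12 to 16 for 30 against 25 °C, 1 to 2 for 11 against 14 °C and 2 to 3 for the lists. Scaling moved the median of all features for low against high from -0.173 to 0.0221 (75th percentile), -0.0596 (quantile) and 0.0717 (spike-in), and the calls from 7 higher and 14 lower to 9 and 13, 8 and 13, and 9 and 12. For 11 against 25 °C, 9 higher and 8 lower became 12 and 6 with spike-in scaling. Causes were not tested. Dim members, 7 of which were well above background on 4 or fewer arrays, limit what can be measured.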
